A study of Mus musculus with 6 samples.

Results

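The genes described here encode the junctions that join heart muscle cells end to end at the intercalated disc, and the costamere, the rib-like attachment of the contractile apparatus to the cell membrane and the matrix outside. They were chosen by name and number 30 of the 54532 genes in the deposited table: 5 of the desmosome, 5 of the adherens junction, 3 connexins, 4 other disc scaffolds, 7 of the dystrophin complex and 6 of the integrin attachment. The study sequenced polyadenylated RNA from mouse hearts with conditional knockout of Ythdc1 (CKO, 3 libraries) and from mice carrying the loxP-flanked Ythdc1 alleles without deletion (flox control, 3 libraries). Ythdc1 encodes a nuclear protein that reads N6-methyladenosine on RNA. Both groups had normal chow for 15 days; no label names the Cre driver, the age or the sex, and the knockout is called CKO on the samples but HKO in the series' own text. The labels call the libraries biological replicates.

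At the intercalated disc, desmosomes couple the intermediate filaments of neighbouring cells, adherens junctions couple their actin filaments through cadherins and catenins, and gap junctions of connexins pass current between them. Along the side of the cell, the dystrophin complex and the integrins each span the membrane and tie the cytoskeleton to laminin, fibronectin and other matrix proteins. Inherited defects of many of these genes cause arrhythmogenic or dilated cardiomyopathy or muscular dystrophy.

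Values are FPKM (fragments per kilobase of gene length, scaled by the authors to the depth of the library), and between 17434296 and 19360428 reads per library were assigned to genes. Ythdc1 itself measured 2.39, 2.57 and 2.35 FPKM in CKO 1, 2 and 3 and 4.31, 3.64 and 4.11 FPKM in flox controls 1, 2 and 3. It was lower in every CKO library (log2 fold change -0.54, SE 0.09, limma adjusted p = 0.0150). That call was lost without CKO 3 (limma adjusted p = 0.0540), flox control 1 (0.0712) or flox control 3 (0.0648). CKO 3 held 4037 reads of Xist, the RNA of the inactive X chromosome, against 0 to 5 in the other libraries. It was also the highest CKO library in 15 of the 30 genes (50.0%), against 37.1% of all genes tested below. The part of sex in the values was not tested. The 8 cardiomyocyte markers summed to 9221 to 12554 FPKM in CKO libraries and to 11910 to 12900 FPKM in flox controls, and all 8 passed the filter used below, with 1 called lower in CKO, Tnni3 (limma adjusted p = 0.0314). Ryr2 and Pln, not called, also had every CKO library below every flox control (limma adjusted p = 0.0543 and 0.0984). The groups overlapped for Myh6, Tnnt2, Actn2, Myl2 and Myl3. In whole hearts, fewer cells of a type and less RNA per cell cannot be told apart.

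Most of the 30 genes kept close levels in the 2 groups. Of 29 that passed the filter (1 FPKM or more on average), 2 were higher in CKO hearts at a limma adjusted p under 0.05 over all genes tested, and none was lower. These were Itga5, which encodes the alpha chain of the classical fibronectin receptor, and Tln1, which encodes talin, the protein that joins integrin tails to actin. Over all 12144 genes tested, 11.2% were called, 5.69% as higher and 5.49% as lower, so the members' 6.90% was no larger than the background. At an unadjusted p under 0.05 stood 5 members (17.2%), against 27.7% of all genes tested. With 1 library left out, the calls over all genes fell to 712 without CKO 2, 571 without CKO 3, 316 without flox control 1, 597 without flox control 2 and 473 without flox control 3, in place of 1358, and no member was called in any of these 5 fits. The median log2 fold change of the 29 was -0.01, beside 0.01 for all genes tested; 14 fold changes were above 0 and 15 below.

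**Figure D1:**
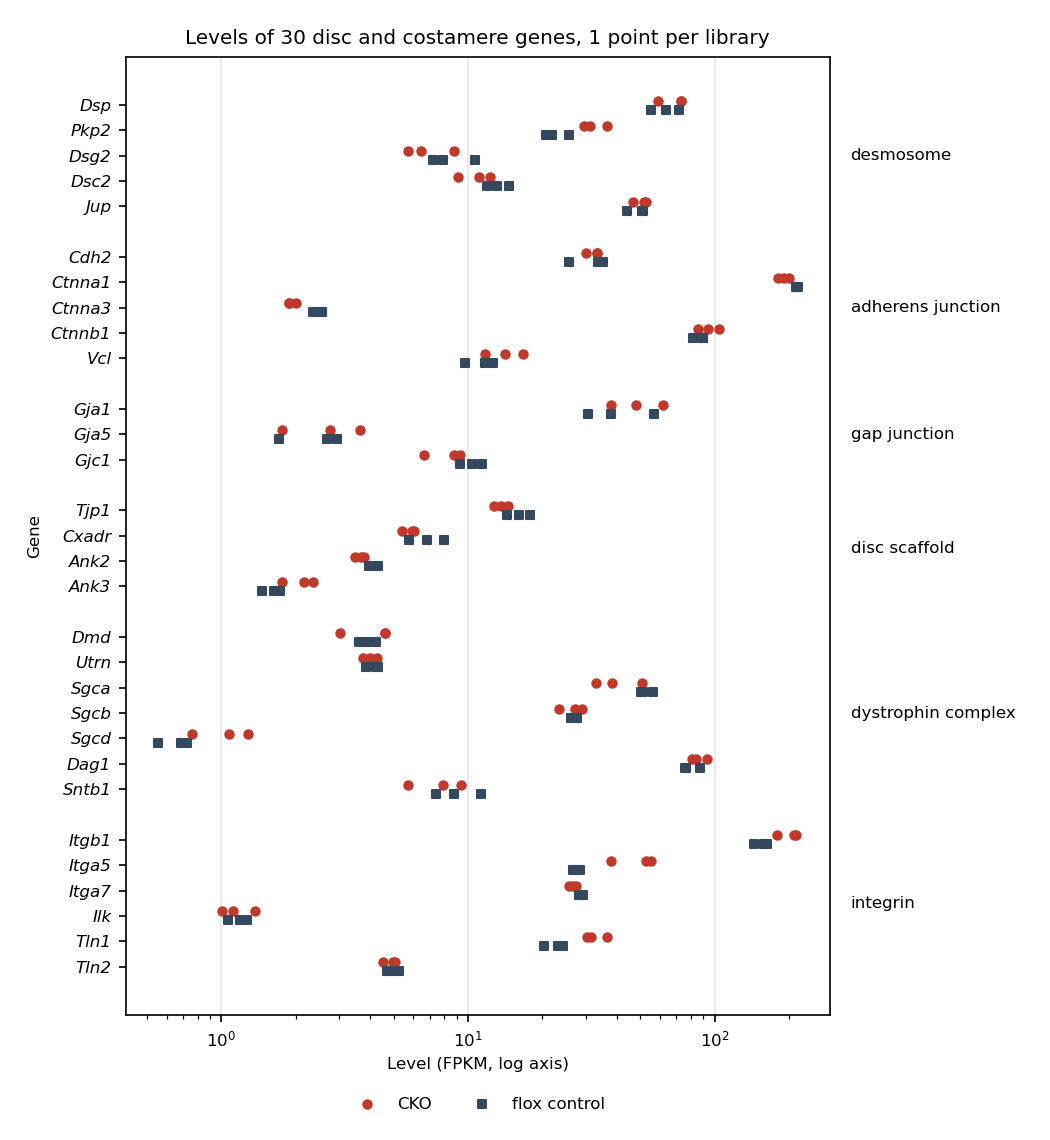
Level of each of the 30 genes in FPKM (log axis), with 1 point per library, CKO circles drawn above flox control squares. Levels span from 0.553 FPKM (Sgcd, flox control 3) to 217 FPKM (Ctnna1, flox control 3), and circles and squares overlap in most of the genes.

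Every CKO library lay above every flox control in 5 of the 29 members and below in another 5. That is 34.5% of them, where 34.3% of all genes tested had groups that do not overlap (16.9% with CKO above, 17.4% with CKO below). The 5 above were Itga5, Tln1, Itgb1, Pkp2 and Ank3, and the 5 below were Ctnna1, Ctnna3, Gjc1, Ank2 and Itga7. For the 27 members that were not called, the 95% interval of the log2 fold change lay within 1 of no change in all 27, and within 0.5 in 16. These intervals are on the scale log2(FPKM + 1), which understates changes of genes near 1 FPKM. The relative spread between libraries was wider in CKO hearts for 22 of the 30 genes, with a median coefficient of variation of 11.1% in CKO and 8.56% in flox control libraries. This count was not made for all genes tested. Over those genes, correlations between libraries were also lower within CKO (0.955 to 0.977) than within flox control (0.978 to 0.984), so wider spread was not particular to the members.

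**Figure D2:**
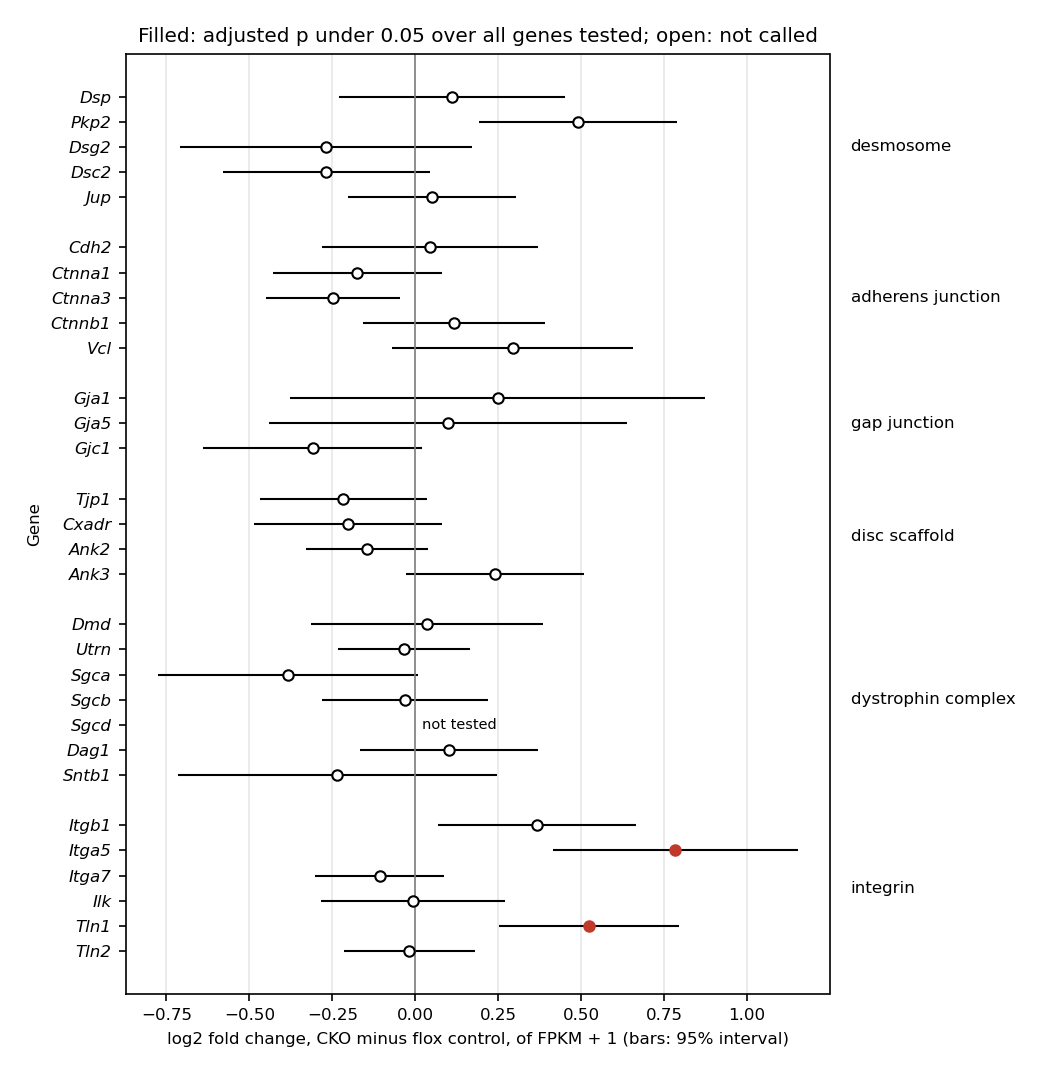
Log2 fold change (CKO minus flox control, on log2(FPKM + 1)) with its 95% interval for each tested gene, grouped by structure. Filled points are the 2 called genes, Itga5 at 0.78 and Tln1 at 0.52; of the open points, those of Pkp2, Itgb1 and Ctnna3 have intervals that leave out 0.

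The integrin attachment held both called genes. Itga5 (ENSMUSG00000000555, chr15:103344286-103366763, minus strand, GRCm38) measured 37.8, 52.7 and 55.3 FPKM in CKO 1, 2 and 3, and 26.6, 27.4 and 28.4 FPKM in flox controls 1, 2 and 3. The flox controls were almost equal, and every CKO library stood above them, CKO 1 least. The means were 48.6 ± 9.45 FPKM in CKO and 27.5 ± 0.885 FPKM in flox control hearts (SD, n = 3 each), a ratio of 1.77. The log2 fold change was 0.78 (SE 0.15, limma adjusted p = 0.0265).

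Tln1 (chr4:43531519-43562691, minus strand, GRCm38) measured 30.3, 36.6 and 31.6 FPKM in CKO 1, 2 and 3, and 23.1, 24.2 and 20.3 FPKM in flox controls 1, 2 and 3. The groups did not overlap, with means of 32.8 ± 3.32 FPKM in CKO and 22.5 ± 2.01 FPKM in flox control hearts (SD, n = 3 each). Its log2 fold change was 0.52 (SE 0.11, limma adjusted p = 0.0343). Of its exonic bases, 3.67% are shared with Creb3 on the opposite strand, where reads of the 2 genes cannot be told apart without strand.

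The Itga5 call was lost without CKO 2 (limma adjusted p = 0.0755), CKO 3 (0.0720), flox control 1 (0.105), flox control 2 (0.0796) or flox control 3 (0.0806), and that of Tln1 without the same 5 (0.0830, 0.0799, 0.112, 0.0697 and 0.112). Without CKO 1 both were called (0.00627 for Itga5 and 0.0366 for Tln1).

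Itgb1, the beta chain that pairs with the products of Itga5 and Itga7, measured 178, 209 and 214 FPKM in CKO 1, 2 and 3, and 158, 163 and 144 FPKM in flox controls 1, 2 and 3. All CKO libraries were above all flox controls, but the gene did not pass (log2 fold change 0.37, SE 0.13, limma adjusted p = 0.114). Itga7, which encodes the muscle laminin receptor alpha chain, measured 25.7 to 27.5 FPKM in CKO and 28.1 to 29.2 FPKM in flox control hearts (log2 fold change -0.11, limma adjusted p = 0.442). Tln2, the second talin gene, measured 4.50 to 5.06 FPKM in CKO and 4.69 to 5.24 FPKM in flox control hearts, overlapping throughout (log2 fold change -0.02, limma adjusted p = 0.919).

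Ilk, which encodes a scaffold kinase at integrin tails, measured only 1.01 to 1.37 FPKM in CKO and 1.06 to 1.27 FPKM in flox control hearts, from 50 to 73 reads per library. Of its 2744 exonic bases, 89.7% are shared with Taf10 or Rrp8 on the opposite strand. The part of this overlap in the low level was not tested. No difference was detectable with so few reads (log2 fold change -0.01, limma adjusted p = 0.977).

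**Figure D3:**
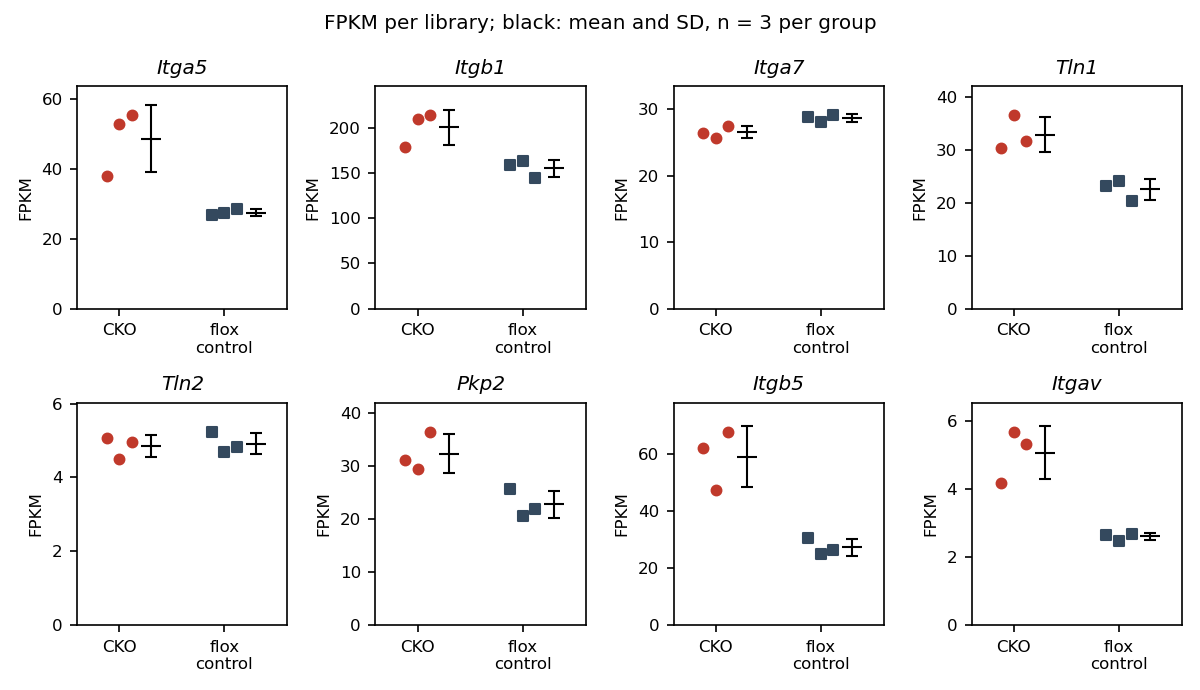
FPKM per library in CKO and flox control hearts for 6 of the 30 genes and for the integrin genes Itgb5 and Itgav, with black bars for mean and SD (n = 3 per group; axes start at 0). Itga5, Itgb1, Tln1, Pkp2, Itgb5 and Itgav have all CKO points above all flox control points, Itga7 has them all below by a small margin, and Tln2 overlaps.

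The 250 bases upstream of the RefSeq start (GRCm38.p6) are shown for Itga5 and Tln1, the called genes, and for Itgb1, whose product pairs with that of Itga5. Capitals mark matches, on either strand, to 6 motifs searched: GGGCGG (the GC box), GGAATG (bound by TEAD factors), TGANTCA (bound by AP-1), the CArG box (bound by SRF), CCAAT and TATAAA. No match overlapped another. Windows were chr15:103366792-103367041 on the minus strand for Itga5, chr8:128685404-128685653 on the plus strand for Itgb1 and chr4:43562584-43562833 on the minus strand for Tln1. The bounds of Tln1 given above reach 43562691, so part of its window lies inside the gene as annotated for FPKM. The lines read 5′ to 3′.
Itga5: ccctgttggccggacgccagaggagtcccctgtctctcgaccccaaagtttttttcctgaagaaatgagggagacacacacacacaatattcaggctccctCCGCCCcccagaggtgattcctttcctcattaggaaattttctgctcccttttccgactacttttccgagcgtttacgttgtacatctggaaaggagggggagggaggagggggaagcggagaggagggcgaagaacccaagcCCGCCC
Itgb1: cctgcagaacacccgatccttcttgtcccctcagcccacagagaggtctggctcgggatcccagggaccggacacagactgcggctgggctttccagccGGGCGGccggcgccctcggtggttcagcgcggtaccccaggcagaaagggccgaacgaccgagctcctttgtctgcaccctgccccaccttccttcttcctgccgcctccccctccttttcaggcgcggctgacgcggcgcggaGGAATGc
Tln1: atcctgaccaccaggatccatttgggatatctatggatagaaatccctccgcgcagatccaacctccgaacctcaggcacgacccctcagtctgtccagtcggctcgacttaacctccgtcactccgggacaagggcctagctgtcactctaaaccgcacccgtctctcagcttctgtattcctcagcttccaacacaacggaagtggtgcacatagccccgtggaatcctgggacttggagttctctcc
The Itga5 window held 2 GC boxes, the Itgb1 window 1 GC box and 1 GGAATG, and the Tln1 window none of the 6. Among 32851 such windows of the genome, 32.7% held GGGCGG, 12.6% GGAATG, 6.75% TGANTCA, 1.47% a CArG box, 33.8% CCAAT and 12.4% TATAAA. The 3 windows thus had no motif in common among those searched. RefSeq promoter windows were found for 19 of the 30 genes.

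In the desmosome, none of the 5 genes was called by limma, and 1 had an unadjusted p under 0.05. Pkp2, a plaque protein gene often mutated in arrhythmogenic cardiomyopathy, came closest. It measured 31.1, 29.4 and 36.5 FPKM in CKO 1, 2 and 3, and 25.6, 20.7 and 21.9 FPKM in flox controls 1, 2 and 3. Every CKO library was above every flox control, the log2 fold change was 0.49 (SE 0.12) and the limma adjusted p was 0.0534, just outside the threshold. It passed with only genes of at least 5 FPKM (limma adjusted p = 0.0452), after rescaling to the same sum (0.0428) and with voom on recovered reads (0.0486), and its adjusted p ranged over the alternatives from 0.0428 to 0.155.

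Dsg2 and Dsc2, the desmosomal cadherins that bridge the gap between cells, had nearly equal log2 fold changes of -0.27 (SE 0.18, limma adjusted p = 0.393) and -0.27 (SE 0.13, adjusted p = 0.239). Dsg2 measured 8.74, 5.73 and 6.43 FPKM in CKO 1, 2 and 3, and 10.7, 7.89 and 7.23 FPKM in flox controls 1, 2 and 3. Dsc2 measured 12.3, 9.10 and 11.1 FPKM in CKO 1, 2 and 3, and 14.6, 11.9 and 13.1 FPKM in flox controls 1, 2 and 3. Both were highest in library 1 of each group, and the groups overlapped. Dsp, the desmoplakin gene, whose product anchors the plaque to intermediate filaments, measured 59.1 to 73.3 FPKM in CKO and 55.1 to 71.6 FPKM in flox control hearts (log2 fold change 0.11, adjusted p = 0.671). Jup, the plakoglobin gene, measured 46.6 to 52.5 FPKM in CKO and 44.1 to 51.0 FPKM in flox control hearts (log2 fold change 0.05, adjusted p = 0.805). The means of the 3 plaque genes were above those of the flox controls and the means of both cadherin genes below, none past the threshold.

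In the adherens junction, the alpha-catenin genes were the ones whose groups separated. Ctnna3, whose product occurs mainly in heart muscle and testis, measured 2.01, 1.88 and 1.87 FPKM in CKO 1, 2 and 3, and 2.49, 2.55 and 2.36 FPKM in flox controls 1, 2 and 3. Ctnna1, its widely expressed relative, measured 181, 191 and 200 FPKM in CKO 1, 2 and 3, and 215, 214 and 217 FPKM in flox controls 1, 2 and 3. Neither passed (log2 fold change -0.25, SE 0.08, limma adjusted p = 0.113 for Ctnna3, and -0.17, SE 0.11, adjusted p = 0.339 for Ctnna1). The level of Ctnna1 depends on the deposited gene length of 3698 bases, where the GENCODE exons of that gene cover 6425; the other 29 genes had equal lengths in both.

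Cdh2, the N-cadherin gene, averaged 32.2 ± 1.92 FPKM in CKO and 31.5 ± 5.04 FPKM in flox control hearts (SD, n = 3 each). Ctnnb1, the beta-catenin gene, measured 85.6 to 104 FPKM in CKO and 81.7 to 90.05 FPKM in flox control hearts. Their log2 fold changes were 0.04 (limma adjusted p = 0.875) and 0.12 (adjusted p = 0.571). Vcl, the vinculin gene, whose product reinforces both adherens junctions and costameres, measured 11.7, 16.7 and 14.2 FPKM in CKO 1, 2 and 3, and 12.6, 11.7 and 9.68 FPKM in flox controls 1, 2 and 3. The groups overlapped through CKO 1 (log2 fold change 0.29, SE 0.15, adjusted p = 0.264), and 25.5% of its exonic bases are shared with Ap3m1 on the opposite strand.

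The 3 connexin genes were not called by limma, and none had an unadjusted p under 0.05. Gja1, which encodes the main connexin of ventricular muscle, had the largest standard error of the 29 tested genes (0.26 on the log2 scale). It measured 61.9, 48.0 and 38.0 FPKM in CKO 1, 2 and 3, and 38.0, 30.7 and 56.8 FPKM in flox controls 1, 2 and 3. The highest flox control exceeded 2 of the 3 CKO libraries, and the interval of the log2 fold change ran from -0.38 to 0.87 (log2 fold change 0.25, limma adjusted p = 0.596). Gjc1, expressed in the conduction system and the early heart, measured 6.61, 9.25 and 8.75 FPKM in CKO 1, 2 and 3, and 10.3, 9.28 and 11.4 FPKM in flox controls 1, 2 and 3. CKO libraries were all lower, CKO 2 by a small margin (log2 fold change -0.31, SE 0.14, adjusted p = 0.205). Gja5, the connexin of atria, conduction fibres and arterial endothelium, measured 1.76, 3.66 and 2.77 FPKM in CKO 1, 2 and 3, and 2.69, 1.71 and 2.93 FPKM in flox controls 1, 2 and 3, with full overlap (log2 fold change 0.10, adjusted p = 0.822).

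Markers of the places where Gja5 and Gjc1 are expressed moved on their own. Of 8 conduction system markers, 5 were tested and 2 were called lower, Hcn4 and Cntn2. Both passed the filter only through the flox controls, where they are high, and so had to differ to be tested. Hcn4, a pacemaker channel gene, measured 0.328, 0.378 and 0.0812 FPKM in CKO 1, 2 and 3, and 1.85, 1.23 and 2.80 FPKM in flox controls 1, 2 and 3 (log2 fold change -1.20, limma adjusted p = 0.0212). Of the same list, Irx3 was the most abundant, with 24.9 ± 5.58 FPKM in CKO and 15.1 ± 5.24 FPKM in flox control hearts (SD, n = 3 each; limma adjusted p = 0.146). Shox2, untested under the filter, measured 0.326 to 0.488 FPKM in CKO and 0.0860 to 0.258 FPKM in flox control libraries, with CKO above throughout. The whole conduction list summed to 23.3 to 33.1 FPKM in CKO and 17.3 to 30.5 FPKM in flox control libraries, and the arterial endothelial list to 56.3 to 103 FPKM in CKO and 58.2 to 64.9 FPKM in flox control libraries. Of the 7 arterial markers, 1 was called higher, Fbln5, at 18.4 ± 6.84 FPKM in CKO and 7.37 ± 0.352 FPKM in flox control hearts (SD, n = 3 each; limma adjusted p = 0.0450). The 8 atrial markers summed to 992, 553 and 2107 FPKM in CKO 1, 2 and 3, and to 429, 163 and 415 FPKM in flox controls 1, 2 and 3, with 1 called higher, Nppa, and 2 lower, Sln and Stard10. Nppa, a natriuretic peptide gene that stressed ventricles also express, gave 935, 517 and 2057 FPKM of it in CKO 1, 2 and 3, and 191, 83.5 and 99.5 FPKM in flox controls 1, 2 and 3. Myl7, the atrial myosin light chain gene, went the other way, with 39.2, 24.1 and 40.7 FPKM in CKO 1, 2 and 3, and 154, 56.6 and 244 FPKM in flox controls 1, 2 and 3 (limma adjusted p = 0.0631). Myl4 also had every CKO library below every flox control and was not called (limma adjusted p = 0.0534). The groups overlapped for Bmp10, Tbx5 and Gnao1. Separately, flox control 2 was the lowest flox control in 12 of the 17 junction and disc genes described here, against 34.6% of all genes tested. In the 13 dystrophin complex and integrin genes, flox control 2 was lowest in 3 and flox control 3 in 9. Over all genes tested, flox control 3 was the lowest flox control in 35.8%. The part of these cell types in the connexin values was not tested.

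The remaining scaffolds of the disc included an ankyrin pair on opposite sides of the flox controls, and none of the 4 was called by limma or had an unadjusted p under 0.05. Ank2, which anchors ion transporters, measured 3.70, 3.49 and 3.80 FPKM in CKO 1, 2 and 3, and 4.31, 4.20 and 3.96 FPKM in flox controls 1, 2 and 3. Ank3, which anchors the cardiac sodium channel at the disc, measured 1.75, 2.16 and 2.36 FPKM in CKO 1, 2 and 3, and 1.73, 1.63 and 1.46 FPKM in flox controls 1, 2 and 3. The groups did not overlap in either gene, with CKO below for Ank2 (log2 fold change -0.15, SE 0.08, limma adjusted p = 0.274) and above for Ank3 (0.24, SE 0.11, adjusted p = 0.221). Tjp1, a scaffold that binds connexins, measured 12.8 to 14.5 FPKM in CKO and 14.3 to 17.8 FPKM in flox control hearts (log2 fold change -0.22, adjusted p = 0.240). Cxadr, a cell adhesion protein of the disc that also serves as a virus receptor, measured 5.38 to 6.04 FPKM in CKO and 5.76 to 7.95 FPKM in flox control hearts (log2 fold change -0.20, adjusted p = 0.322).

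In the dystrophin complex, limma called none of 6 tested genes, none had an unadjusted p under 0.05 and none had separate groups. Dmd, the X-linked dystrophin gene, measured 3.04, 4.59 and 4.61 FPKM in CKO 1, 2 and 3, and 4.24, 3.88 and 3.61 FPKM in flox controls 1, 2 and 3. Utrn, its autosomal relative, measured 4.27, 3.998 and 3.76 FPKM in CKO 1, 2 and 3, and 4.33, 4.22 and 3.85 FPKM in flox controls 1, 2 and 3. CKO 1 had the lowest Dmd level of the 6 libraries and the highest Utrn level of its group. The log2 fold changes were 0.04 (limma adjusted p = 0.908) for Dmd and -0.03 (adjusted p = 0.837) for Utrn.

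Among the sarcoglycans, which stabilise dystroglycan in the membrane, Sgca measured 38.2, 33.1 and 50.8 FPKM in CKO 1, 2 and 3, and 51.4, 56.3 and 50.2 FPKM in flox controls 1, 2 and 3. CKO 1 and CKO 2 were below all flox controls and CKO 3 was among them (log2 fold change -0.38, SE 0.16, limma adjusted p = 0.188). Sgcb measured 23.3 to 29.0 FPKM in CKO and 26.2 to 27.5 FPKM in flox control hearts (log2 fold change -0.03, adjusted p = 0.887). Sgcd was under the filter and had no test: it measured 0.763, 1.08 and 1.28 FPKM in CKO 1, 2 and 3, and 0.688, 0.724 and 0.553 FPKM in flox controls 1, 2 and 3, from 91 to 191 reads per library. All CKO libraries were above the flox controls in Sgcd, the lowest by 0.763 against 0.724 FPKM.

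Dag1, which encodes dystroglycan, the laminin-binding core of the complex, measured 80.6 to 93.0 FPKM in CKO and 76.1 to 87.5 FPKM in flox control hearts (log2 fold change 0.10, limma adjusted p = 0.612). Sntb1, a syntrophin gene whose product recruits signalling proteins to dystrophin, measured 5.68 to 9.37 FPKM in CKO and 7.42 to 11.3 FPKM in flox control hearts (log2 fold change -0.24, adjusted p = 0.503). Dystroglycan transcripts were thus far above those of dystrophin and the syntrophin per kilobase in both groups.

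Several of these genes come in pairs that can stand in for each other or serve the same structure, and 8 FPKM ratios were compared. Itga5 to Itga7 was 1.43, 2.05 and 2.01 in CKO 1, 2 and 3, and 0.922, 0.974 and 0.973 in flox controls 1, 2 and 3. The mean ratio was 1.83 ± 0.350 in CKO and 0.956 ± 0.0296 in flox control hearts (SD, n = 3 each). Every CKO library had a higher ratio than every flox control. Which of these genes is higher depends on the gene lengths behind FPKM, 4933 bases for Itga5 and 8092 for Itga7. Tln2 to Tln1 was 0.149 ± 0.0231 in CKO and 0.219 ± 0.0228 in flox control hearts, and Ank3 to Ank2 was 0.571 ± 0.0840 in CKO and 0.386 ± 0.0154 in flox control hearts (SD, n = 3 each). These 3 ratios had groups that did not overlap, with an exact two-sided permutation p of 0.1 each, the smallest that 3 against 3 libraries can give (Benjamini-Hochberg adjusted p = 0.267 over 8 ratios).

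The other 5 ratios overlapped between groups. Utrn to Dmd was 1.41, 0.871 and 0.816 in CKO 1, 2 and 3, and 1.02, 1.09 and 1.07 in flox controls 1, 2 and 3, with CKO 1 to one side and the other CKO libraries to the other. Ctnna3 to Ctnna1 was 0.0101 ± 0.000894 in CKO and 0.0115 ± 0.000522 in flox control hearts, and Dsc2 to Dsg2 was 1.57 ± 0.159 in CKO and 1.56 ± 0.226 in flox control hearts (SD, n = 3 each). Gjc1 to Gja1 was 0.177 ± 0.0634 in CKO and 0.258 ± 0.0517 in flox control hearts, and Gja5 to Gja1 was 0.0592 ± 0.0267 in CKO and 0.0593 ± 0.0100 in flox control hearts (SD, n = 3 each). Exact permutation p for these 5 lay between 0.2 and 1.

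**Figure D4:**
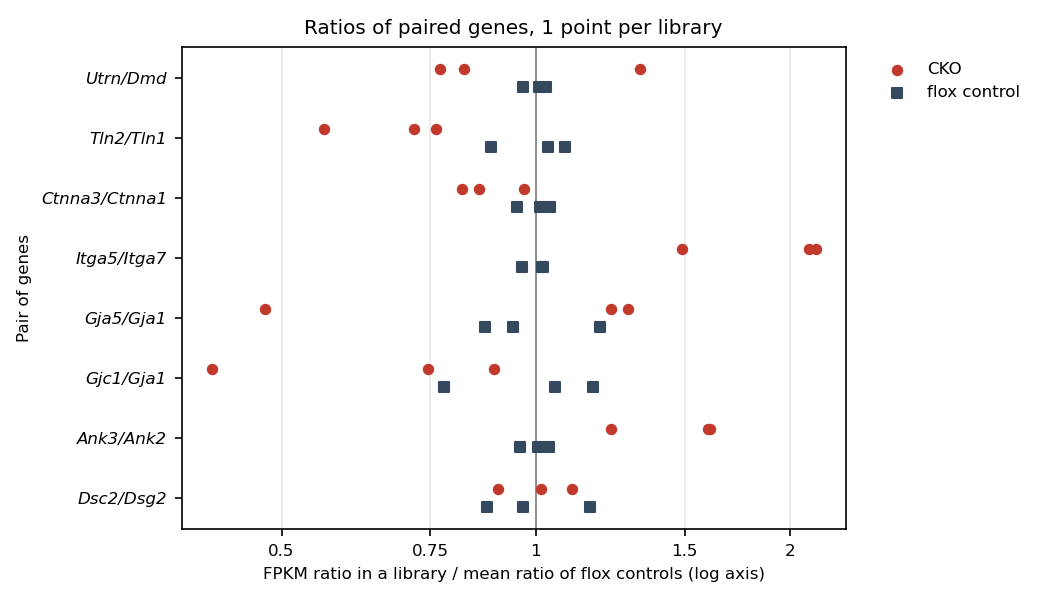
Ratio of FPKM of 8 gene pairs in each library, divided by the mean ratio of the flox controls (log axis), CKO circles above flox control squares. For Itga5/Itga7 and Ank3/Ank2 all CKO points lie right of the flox controls, and for Tln2/Tln1 all lie left.

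The members longest on the genome showed no common direction. Dmd spans 2257 kb, Ctnna3 1574 kb, Sgcd 1093 kb, Ank3 629 kb, Ank2 578 kb and Utrn 487 kb. CKO means were above flox control means for Dmd, Sgcd and Ank3 and below for Ctnna3, Ank2 and Utrn.

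Other genes of the same structures, listed for comparison, were tested in the same fit. The lists were chosen with earlier results of these data known, so their counts of called genes give these structures no support. Of 33 tested genes of junctions and the disc outside the 30, 5 rose and 2 fell (21.2%, against 11.2% of all genes tested), with a median log2 fold change of 0.21. Xirp1, which encodes a Xin repeat protein of the disc, rose to 61.5 ± 2.11 FPKM in CKO, against 39.1 ± 2.62 FPKM in flox control hearts, and Popdc3 to 18.2 ± 3.53 FPKM in CKO, against 8.52 ± 1.90 FPKM in flox control hearts (SD, n = 3 each). Popdc3 shares 5.76% of its exonic bases with another gene. Tmem65, a disc membrane protein gene, fell to 21.4 ± 1.01 FPKM in CKO, against 34.2 ± 1.94 FPKM in flox control hearts (log2 fold change -0.65, limma adjusted p = 0.0101).

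Without flox control 1 the calls of Tmem65 (limma adjusted p = 0.0544), Xirp1 (0.0521) and Popdc3 (0.0876) were lost, and that of Popdc3 also without flox control 3 (0.0735), CKO 2 (0.0557) or CKO 3 (0.0549). Called genes of this list numbered 1 without flox control 1, 4 without flox control 2 and 3 without flox control 3, CKO 2 or CKO 3.

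Of 23 tested dystrophin complex and basement membrane genes outside the 30, 1 fell and none rose (4.35%; median log2 fold change -0.04). This was Lamb2, a laminin chain gene, at 56.8 ± 5.25 FPKM in CKO and 78.7 ± 2.05 FPKM in flox control hearts (SD, n = 3 each; log2 fold change -0.47, limma adjusted p = 0.0382). Its call was lost when any 1 library other than CKO 1 was left out (adjusted p 0.0890 to 0.134) and after rescaling to the same sum (0.174). An unadjusted p under 0.05 was found for 6 of the 23 (26.1%), near the 27.7% of all genes tested.

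Of 51 tested integrin and focal adhesion genes outside the 30, 8 rose and 3 fell (21.6%, against 11.2% of all genes tested). The median log2 fold change was 0.15. This list too was chosen with earlier results of these data known, so the count gives it no support. Flnc, a filamin gene, rose to 68.2 ± 9.43 FPKM in CKO, against 30.3 ± 4.25 FPKM in flox control hearts (SD, n = 3 each). Hspb1, a small heat shock protein gene, rose to 400 ± 37.8 FPKM in CKO, against 170 ± 30.8 FPKM in flox control hearts, and Ptk2b, a kinase gene related to focal adhesion kinase, to 3.79 ± 0.519 FPKM in CKO, against 1.07 ± 0.431 FPKM in flox control hearts (SD, n = 3 each). Itgb5, an integrin beta chain gene, measured 62.1, 47.2 and 67.9 FPKM in CKO 1, 2 and 3, and 30.5, 25.1 and 26.2 FPKM in flox controls 1, 2 and 3 (log2 fold change 1.08, limma adjusted p = 0.0118). Hspb1 lost its call without flox control 1 (adjusted p = 0.0505). Called genes of this list numbered 4, 6 and 5 without flox controls 1, 2 and 3.

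The integrin subunit genes, members included, form a group chosen only once their values were known: of 14 tested, 4 were higher (Itga5, Itgb5, Itgav and Itgb3) and 2 lower (Itga9 and Itgb6), and the choice leaves this count without support for the group. Itgav, which encodes the alpha chain that pairs with Itgb3 and Itgb5 products, rose to 5.06 ± 0.784 FPKM in CKO, against 2.60 ± 0.105 FPKM in flox control hearts, and Itgb3 to 1.88 ± 0.445 FPKM in CKO, against 0.894 ± 0.105 FPKM in flox control hearts (SD, n = 3 each). Itga9 fell to 8.46 ± 1.62 FPKM in CKO, against 16.5 ± 1.97 FPKM in flox control hearts, and Itgb6 to 0.261 ± 0.141 FPKM in CKO, against 1.94 ± 0.665 FPKM in flox control hearts (SD, n = 3 each). Limma adjusted p was 0.0128 for Itgav, 0.0470 for Itgb3, 0.0170 for Itga9 and 0.0146 for Itgb6. Itgb3 passed the filter only through the CKO libraries and Itgb6 only through the flox controls, so both had to differ to be tested, and they are among the 11 called genes of the list above. Without flox control 1 the calls of Itgav (0.0574), Itga9 (0.0559) and Itgb3 (0.119) were lost, without flox control 2 or 3 those of Itga9 (0.0577 and 0.0603) and Itgb3 (0.124 and 0.133), and without CKO 2 or CKO 3 that of Itgb3 (0.127 and 0.131). Itgb6 fell under the filter without flox control 2 or 3.

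Itga5, Tln1 and Itgb1 are expressed by many cell types of the heart, and markers of cells other than cardiomyocytes were summed per library. The 8 fibroblast markers summed to 753, 846 and 581 FPKM in CKO 1, 2 and 3, and to 549.7, 571 and 719 FPKM in flox controls 1, 2 and 3, with 1 of 8 called higher, Tcf21. Col1a1, Col1a2 and Pdgfra, not called, also had every CKO library above every flox control. The groups overlapped for Col3a1, Dcn, Lum and Dpt. The 8 endothelial markers summed to 431 to 489 FPKM in CKO and 449.8 to 532 FPKM in flox control libraries, and the 8 smooth muscle and pericyte markers to 381 to 546 FPKM in CKO and 435 to 793 FPKM in flox control libraries. In each of these lists 1 marker was called lower, Tie1 of endothelium (limma adjusted p = 0.0302) and Abcc9 of pericytes (0.0162). The 7 macrophage markers summed to 823, 168 and 111 FPKM in CKO 1, 2 and 3, and to 191, 270.5 and 137 FPKM in flox controls 1, 2 and 3. None of these 4 sums separated the groups. CKO 1 had the lowest Itga5, Tln1 and Itgb1 of the CKO libraries. That library was the lowest of its group in 8 of the 13 dystrophin complex and integrin members (61.5%) and in 37.9% of all genes tested. The 6 nerve and Schwann markers, of which 2 were at 0 in all libraries, summed to 3.13 to 4.97 FPKM in CKO and 2.07 to 3.07 FPKM in flox control libraries, and the 6 skeletal muscle markers, nearly all Ckm, to 191 to 347 FPKM in CKO and 386 to 508 FPKM in flox control libraries. Sums of epicardial and erythroid markers overlapped between the groups, with none called. The part of these cells in the Itga5 and Tln1 values was not tested.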

How the data were processed

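RNA-seq of mouse hearts gave 6 libraries, 3 CKO and 3 flox control, grouped by title. The deposited values are FPKM of 54532 genes, scaled by the authors. The submitters' processing notes list GRCm38.p6 as the build and, as tools without role or order, DESeq2 1.20.0, featureCounts 1.5.0-p3, HISAT2 2.0.5 and CASAVA; the labels' protocols describe poly-T selection and no strand marking. Multiplied by gene length, 100% of the FPKM values above 0 became whole multiples of a single amount in each library (tolerance 0.001), from which reads were recovered.

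The 12144 genes averaging 1 FPKM or more entered a limma fit (limma 3.58.1, R 4.3.3) of log2(FPKM + 1) on genotype, using a trended variance; the Benjamini-Hochberg adjusted p threshold was 0.05, two-sided. The procedure was checked on simulated data. Ratios were compared by an exact permutation test over 20 arrangements. Alternatives were a pseudocount of 0.1, other filters, rescaling to the same sum, voom with TMM scaling on recovered reads, a block for replicate number, and each library left out. All 30 genes are described, and of each related list up to 4 called genes by smallest adjusted p, with others said to be chosen later; 1 gene that this rule names is not reported here. Genes and lists were chosen with earlier results of these data known.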

Additional observations from a re-analysis of the deposited data

How the results depend on the processing

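The direction of the Itga5 and Tln1 differences held in all 12 alternatives, but their calls did not. With no filter on low values, 0 members were called by limma (adjusted p = 0.0555 for Itga5 and 0.0593 for Tln1; 5 members have an unadjusted p under 0.05 with the filter), and 798 genes in all in place of 1358. With voom, 3 members passed. Rescaling to the same sum called Itga5 and Pkp2, and lost Tln1 (adjusted p = 0.0883). Deviations of same-numbered libraries had correlations of 0.14, 0.06 and -0.01 for numbers 1, 2 and 3. Libraries with different numbers gave -0.23 to 0.14. No pairing by number was seen, but 3 libraries per group cannot exclude one. With the replicate block 715 genes and 1 member (Itga5) were called, Tln1 having limma adjusted p = 0.0684. Leaving out 1 library gave 316 to 1492 called genes and 0 to 2 called members. Ythdc1 was not called after rescaling (log2 fold change -0.50) or with the block (-0.54), and ranged from -0.60 to -0.50 with 1 library left out.

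Of the other junction genes, 4 were called with no filter, 3 with the block and 1 to 9 with 1 library left out. Of the other dystrophin complex genes, 0 were called with no filter, after rescaling and with the block, 3 with a mean of at least 5 FPKM, 2 with voom and 0 to 2 with 1 library left out. Of the other integrin and focal adhesion genes, 6 were called with a mean of at least 5 FPKM and 4 to 13 with 1 library left out.

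Of the 27 uncalled members tested, 26 were called in none of the alternatives, the exception being Pkp2. Near-zero fold changes that were not called took either sign. After rescaling, Utrn (0.011), Sgcb (0.021), Ilk (0.029) and Tln2 (0.027) were above 0. With 1 library left out, the log2 fold change ranged from -0.016 to 0.10 for Jup, -0.091 to 0.13 for Cdh2, -0.078 to 0.30 for Gja5, -0.045 to 0.19 for Dmd, -0.075 to 0.0019 for Utrn, -0.10 to 0.053 for Sgcb, -0.074 to 0.046 for Ilk and -0.045 to 0.025 for Tln2. The causes were not tested. Few counted reads limit Ilk, with 50 to 73 per library, more than the other members. Of its exonic bases, 89.7% are shared with genes on the opposite strand, and the part of this overlap was not tested.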
